A study of Oryza sativa with 2 samples.

Results

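Expansins are plant proteins that let growing cell walls stretch by loosening the contacts between cellulose and the polysaccharides around it, without cutting either. Alpha-expansins (EXPA) act at acid pH on most plant walls. Beta-expansins (EXPB) are numerous in grasses, where the group that includes the pollen allergens loosens walls rich in arabinoxylan. Expansin-like A proteins (EXLA) share the family's domains, but wall-loosening activity is not established for them. In a leaf, expansins are known above all from the zones where cells are still elongating.

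The set described here holds 9 rice expansin genes, of 49 that the gene table names as expansins and of 17905 genes with a probe set on the array. They are the alpha-expansin genes EXPA5 (LOC4330706), EXPA8 (LOC4327217) and EXPA10 (LOC4336776), the beta-expansin genes EXPB2 (LOC4349348), EXPB7 (LOC4331300), EXPB8 (LOC4331298) and EXPB11 (LOC4330213), and the expansin-like genes EXLA1 (LOC4331516) and EXLA3 (LOC4343213). Of these, 6 were fixed by probe set, and EXPA10, EXPB2 and EXLA3 were to be read from the probe set with the highest mean signal. Each of the 9 has 1 probe set, so that rule left no choice. The members were chosen by their signals and log2 ratios on these same arrays, so their values are a description, not evidence about the family.

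Leaves of 6-week-old rice were measured on 1 Affymetrix rice array per genotype. The LRK1 transgenic plants are in the background 9311 and are titled LRK1 060615, and the control is 9311, an indica rice, without the transgene. LRK1 encodes a receptor-like kinase with leucine-rich repeats. Each genotype was represented by leaves of 10 plants, untreated and grown at 28 °C under 14 h of light and 10 h of dark. The labels state neither the promoter of the transgene nor whether the plants descend from a single event. Because each genotype has a single array, differences could not be set against replicate error, no test was possible, and precision is limited by the number of arrays. In leaf RNA, fewer cells that express a gene and less of its RNA per cell cannot be told apart.

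Values are log2 MAS5 signals, and every ratio is LRK1 transgenic over control 9311. The median log2 signal on both arrays together, array controls left out, was 5.40, a linear signal of 42.1, and served as a floor. Calls of higher or lower required that both signals were at the floor or above and at least 2-fold apart. Where 1 signal was at least 2 times the floor, a log2 signal of 6.40, and the other lay below the floor, the fold was taken against the floor and is a bound, written "at least". The arrays had median log2 signals of 5.56 (LRK1 transgenic) and 5.21 (control 9311), and the median log2 ratio of 63 bacterial spike probe sets was 0.34. Of 7 pairs of 3' and 5' probe sets for housekeeping genes, 6 had the higher 3' to 5' ratio on the control array, for example 2.16 on the LRK1 transgenic array and 3.87 on the control array for GAPDH. The part of this difference in the expansin values was not tested.

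Of the beta-expansins, 3 of 4 were called higher on the LRK1 transgenic array. The calls lower were 1 of 3 alpha-expansins and 1 of 2 expansin-like genes. The other 4 genes were not called, and no difference between subfamilies was tested. Over the 15150 genes that reached the floor on at least 1 array, 7.17% were called higher and 11.4% lower by the same rule. All 9 genes reached the floor on the LRK1 transgenic array, and 5 of 9 reached it on the control array. Of all 17905 genes, 13526 reached it on both arrays, 909 on the LRK1 transgenic array only and 715 on the control array only. The 9 were chosen by signal and ratio, so their counts at the floor describe that choice.

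**Figure D1:**
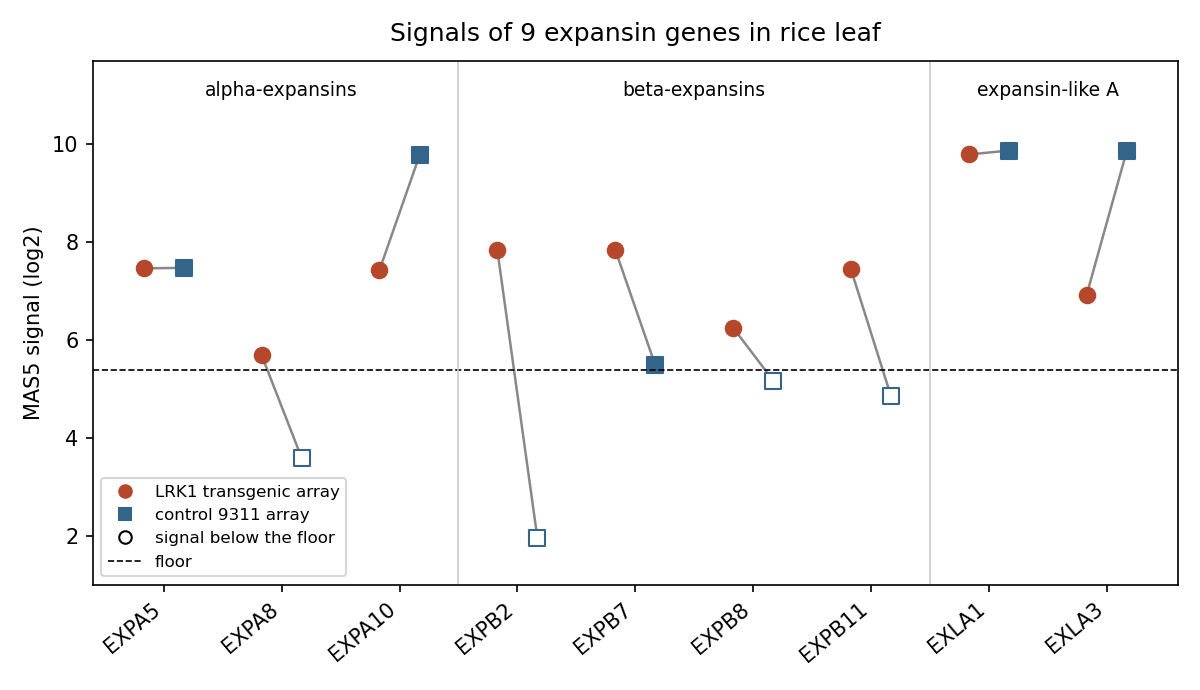
Log2 MAS5 signal (y axis) of each of 9 expansin genes, with the LRK1 transgenic array (circle) left of the control 9311 array (square), 1 array each, and open symbols below the dashed floor of 5.40. EXPB2, EXPB7 and EXPB11 lie above the floor on the LRK1 transgenic array and near or below it on the control array, while EXPA10 and EXLA3 lie lower on the LRK1 transgenic array.

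EXPB2 had a log2 signal of 7.84 on the LRK1 transgenic array and 1.95 on the control array. The control signal lay far below the floor, so the gene was at least 5.42-fold higher in LRK1 transgenic leaves. Over the 15150 genes, 1.08% had a bound of this kind on the LRK1 transgenic array and 1.52% on the control array. Of the 163 such genes on the LRK1 transgenic array, 19 had one at or above that of EXPB2, itself included. The size of the bound follows from the floor. With the floor at the 25th percentile of signals instead of the median, it was at least 25.6-fold.

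EXPB11 had a log2 signal of 7.45 on the LRK1 transgenic array and 4.85 on the control array. The control signal was 0.55 below the floor on the log2 scale, and the gene was at least 4.14-fold higher in LRK1 transgenic leaves. In deepwater rice, EXPB11 belongs to the beta-expansins known from elongating internodes, together with EXPB3, EXPB4 and EXPB6.

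EXPB7 had a log2 signal of 7.85 on the LRK1 transgenic array and 5.48 on the control array. It was the beta-expansin of the set with both signals at the floor, and it was 5.15-fold higher in LRK1 transgenic leaves. Its control signal was only 0.09 above the floor on the log2 scale. Of 13526 genes with both signals at the floor, 0.266% had a ratio at or above that of EXPB7, against 6.82% at least 2-fold higher.

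EXPB8 had a log2 signal of 6.25 on the LRK1 transgenic array and 5.17 on the control array. It was higher on the LRK1 transgenic array by 1.08 on the log2 scale, but its control signal was below the floor and its LRK1 transgenic signal was under the 6.40 that a bound requires. Limited to the floor, its log2 ratio was 0.86, just outside the rule. The called beta-expansin nearest to the rule was EXPB11, with a floor-limited log2 ratio of 2.05.

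EXPA10 is known in rice as an aluminium-inducible expansin gene of the root. It had a log2 signal of 7.43 on the LRK1 transgenic array and 9.78 on the control array, which made it 5.09-fold lower in LRK1 transgenic leaves. Of the genes with both signals at the floor, 1.49% had a ratio at or below its own, and 11.1% were at least 2-fold lower. In linear units its signal was 173 on the LRK1 transgenic array and 878 on the control array.

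The other alpha-expansin genes were not called. EXPA5 had a log2 signal of 7.47 on the LRK1 transgenic array and 7.48 on the control array, a ratio of -0.01. EXPA8, known from overexpression work in rice on root growth, had a log2 signal of 5.69 on the LRK1 transgenic array and 3.59 on the control array. That difference of 2.10 on the log2 scale had its upper signal only 0.30 above the floor, and a bound of 1.23-fold is under the 2-fold rule. The 3 alpha-expansins therefore showed a gene 5.09-fold lower, a gene with nearly equal signals and a gene near background.

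EXLA3 had a log2 signal of 6.93 on the LRK1 transgenic array and 9.87 on the control array. It was 7.67-fold lower in LRK1 transgenic leaves, and 0.680% of the genes with both signals at the floor had a ratio at or below this. EXLA1 had a log2 signal of 9.80 on the LRK1 transgenic array and 9.88 on the control array, a ratio of -0.08. The expansin-like genes of the set thus held a gene 7.67-fold lower and a gene with nearly equal signals. Signals of different probe sets are not on a common scale, so a ranking by brightness or a sum over genes is no measure of relative abundance.

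Since each gene rests on 1 probe set, the spread between probe sets of a gene can be taken only from other genes. In 1951 genes with at least 2 probe sets at the floor on both arrays, the log2 ratios of the 2 brightest differed with an SD of 0.68. The SD was 0.80 in 266 genes whose dimmer probe set averaged less than 1 log2 unit above the floor, and 0.54 in 977 genes whose dimmer probe set averaged at least 3 units above it. These SDs describe disagreement between probes on the same RNA and leave out differences between plants and labellings. Because the members were chosen by their ratios, those ratios were not judged against this spread.

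**Figure D2:**
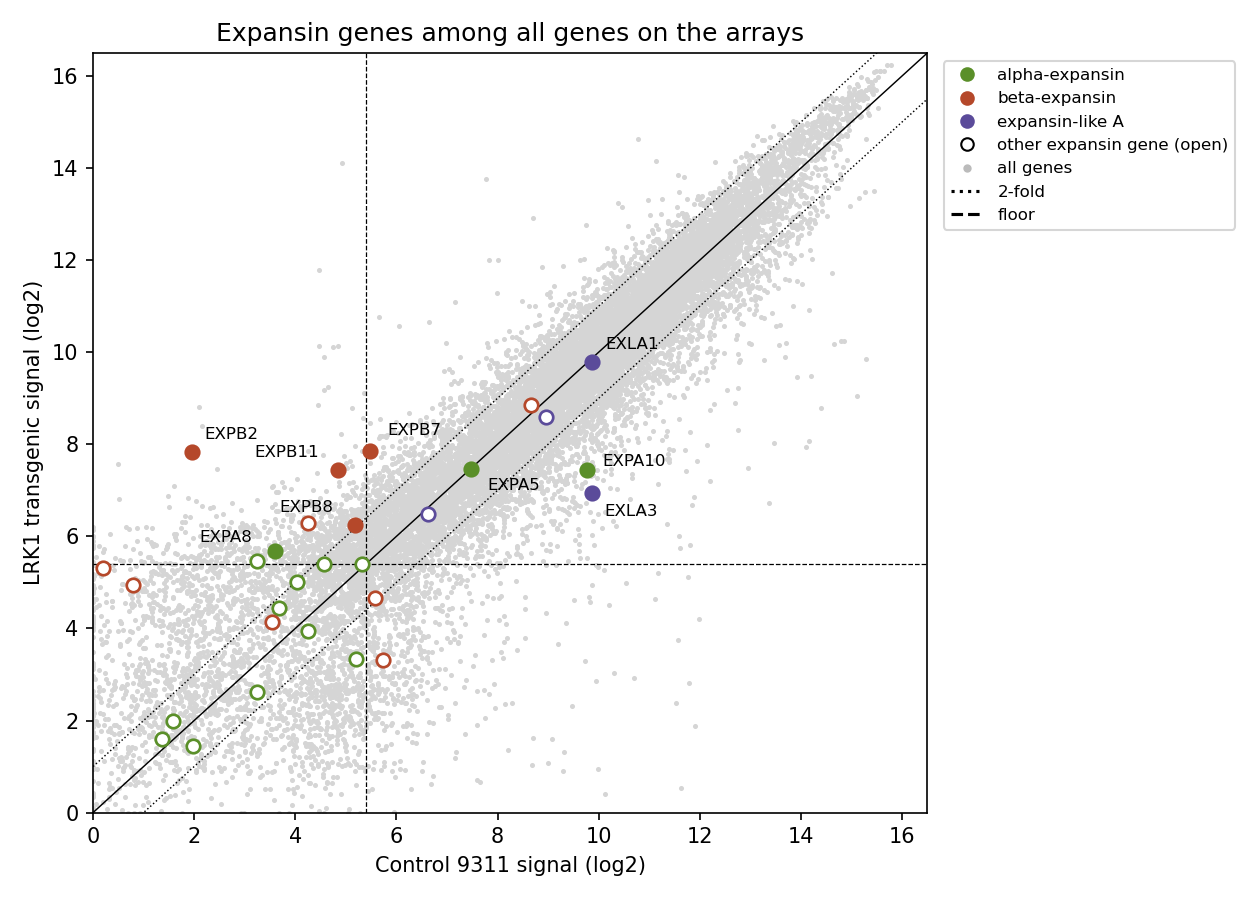
LRK1 transgenic log2 signal (y axis) against control 9311 log2 signal (x axis) for all genes (grey, 1 probe set each) and for 29 expansin genes by subfamily, filled for the set of 9 and open for the other 20, with the floor dashed and 2-fold lines dotted. Of the called genes, EXPB2, EXPB11 and EXPB7 stand above the upper 2-fold line and EXPA10 and EXLA3 below the lower one. Uncalled genes also lie outside these lines, among them EXPA8, EXPB8 and EXPB6 above and EXPB9 below, each with at least 1 signal below the floor. Of the other expansin genes, 11 are below the floor on both arrays.

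With the brightest probe set standing for each gene, the remaining family members gave no further calls. Of the 49 named expansin genes, 29 had a probe set in the annotation used, and the 20 genes outside the set of 9 held 0 called higher and 0 called lower. Of these 20, 11 were below the floor on both arrays and 9 reached it on at least 1. Over all genes that reached it, 7.17% were called higher and 11.4% lower, so no calls among so few genes is not read as a result. The choice of the set by ratio also took genes with large ratios out of this remainder. The brightest of the others by mean log2 signal was EXLA4, with 8.60 on the LRK1 transgenic array and 8.97 on the control array. EXPB3 had 8.86 on the LRK1 transgenic array and 8.65 on the control array, and EXLA2 had 6.49 and 6.63 in the same order. EXPA7 lay at the floor, with 5.40 on the LRK1 transgenic array and 5.31 on the control array. The other probe set of EXLA2, of the _x_at type, had 6.81 on the LRK1 transgenic array and 5.79 on the control array. Its log2 ratio of 1.02 just passed the rule for a higher call, so both the sign and the call for that gene depended on the probe set.

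Across the 18 expansin genes that reached the floor on at least 1 array, the median log2 ratio with signals limited to the floor was 0.00, against 0.03 over all 15150 such genes. The 8 beta-expansins among them had a median of 0.87, the 6 alpha-expansins 0.00 and the 4 expansin-like A genes -0.25. These medians include the genes chosen for their ratios. In all, 8 expansin genes reached the floor on the LRK1 transgenic array only and 2 on the control array only. Over all genes these numbers were 909 and 715, and the 24426 probe sets below the floor on both arrays had a median log2 ratio of 0.35, so dim probe sets as a whole were higher on the LRK1 transgenic array. After loess, which takes off the trend of the ratio with signal, EXPB2 was at least 4.12-fold and EXPB11 at least 3.52-fold higher.

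Several beta-expansin genes lie next to each other in the gene order of the Japonica assembly ASM3414082v1, with 0 protein-coding genes between them. EXPB6, EXPB2, EXPB3 and EXPB4 form such a run of 4. EXPB6 had a log2 signal of 6.28 on the LRK1 transgenic array and 4.26 on the control array, close to the 6.40 needed for a bound. EXPB4, named after its values were seen, had 4.67 on the LRK1 transgenic array and 5.58 on the control array, on a probe set of the _s_at type, which may bind more than 1 transcript. Within the run, EXPB2 was called higher, EXPB6 had a floor-limited log2 ratio of 0.88, EXPB3 had 0.21 and EXPB4 had -0.18, of which only EXPB3 had both signals at the floor. EXPB8 and EXPB7 are also direct neighbours, with log2 ratios limited to the floor of 0.86, where the control signal was below it, and 2.36, where both signals were measured. Neighbouring expansin genes can be close in sequence, and binding of one gene's probes by another's RNA was not tested.

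**Figure D3:**
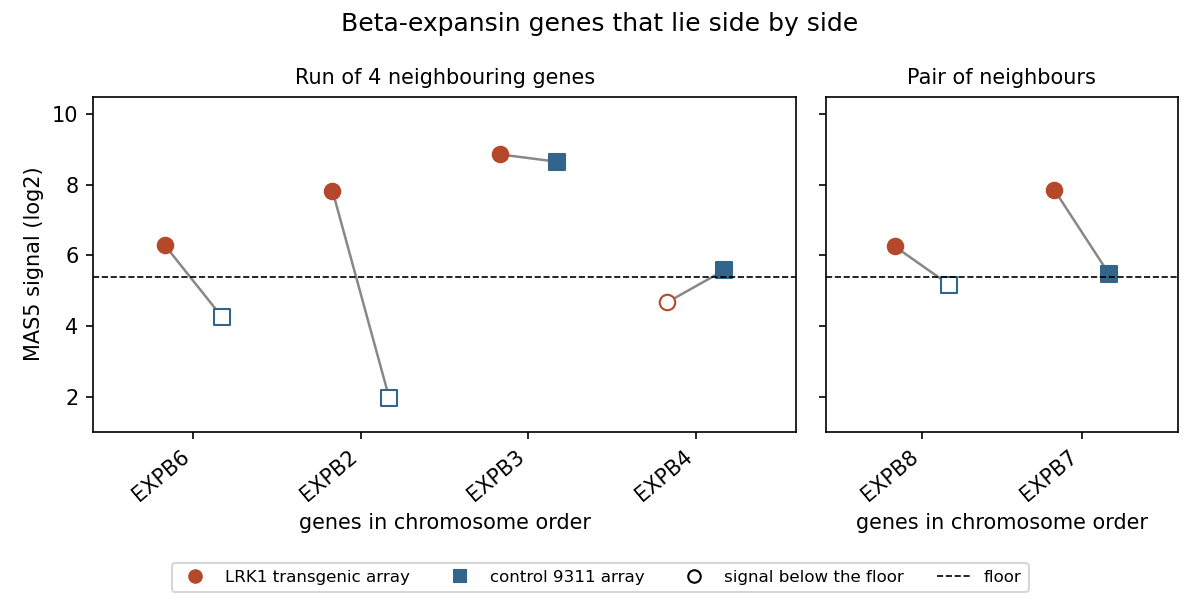
Log2 MAS5 signal (y axis) of beta-expansin genes that lie side by side (x axis, genes in chromosome order, not to scale), with the LRK1 transgenic array (circle) left of the control 9311 array (square), 1 array each, and open symbols below the dashed floor. In the run of 4, EXPB2 and EXPB6 are higher on the LRK1 transgenic array, EXPB3 is nearly equal and EXPB4 is lower, and in the pair both genes are higher.

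The calls depended on the floor more than on the scaling between arrays. Of 11 alternatives, the 2 other choices of probe set could not change the 9 genes, which have 1 probe set each, and the 1.5-fold rule could not remove a call. Lowering the floor to the 25th percentile could not remove a call either, and both centrings could not remove a lower call. EXPA10 and EXLA3 were called lower under all 11. Their calls could have been lost under quantile normalization, loess, the floor at the 75th percentile, 16 added to the signals and the 4-fold rule. Under 4 other scalings the fold of EXPA10 ran from 4.89 to 6.43 and that of EXLA3 from 7.56 to 9.70. EXPB7, EXPB2 and EXPB11 were called higher under 10 of the 11 each. The exception was the floor at the 75th percentile, 8.29 on the log2 scale, which is above both signals of each of the 3 genes. Over the 4 scalings EXPB7 ran from 4.07-fold to 4.87-fold higher. EXPB2 ran from at least 4.12-fold to at least 5.67-fold, and EXPB11 from at least 3.27-fold to at least 4.26-fold. EXPA8 and EXPB8 were called higher under 2 of the 11 alternatives, and EXPA5 and EXLA1 were called under none. The 4-fold rule and the floor at the 75th percentile could not add a call, and both centrings could not add a higher one.

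**Figure D4:**
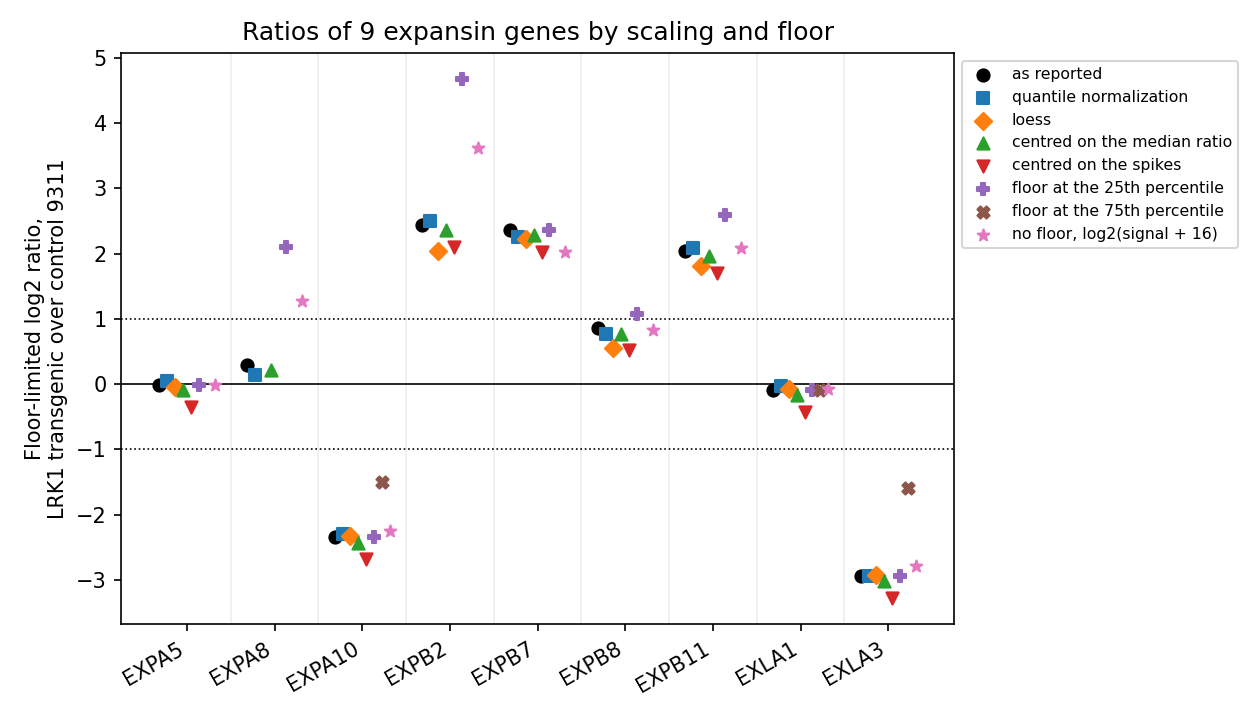
Log2 ratio of LRK1 transgenic over control 9311 with signals limited to the floor (y axis) for each of 9 expansin genes (x axis), 1 symbol per scaling or floor, with no symbol where both signals were below the floor and dotted lines at 2-fold. EXPA10 and EXLA3 stay below the lower line throughout, and EXPB2, EXPB7 and EXPB11 stay above the upper line except where the floor at the 75th percentile leaves them without a value.

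Other genes for enzymes of wall polysaccharides were read from lists found by symbol. Of 14 named endo-1,4-beta-glucanase genes, 13 had a probe set and 7 reached the floor on at least 1 array, of which 0 were called higher and 1 lower. Over the 15150 genes at the floor, 7.17% were called higher and 11.4% lower, so these counts are not read as a result about the list. The gene called lower, GLU10, had a log2 signal of 8.41 on the LRK1 transgenic array and 10.12 on the control array, 3.27-fold lower. GLU11, the brightest of the list, had 10.85 on the LRK1 transgenic array and 11.77 on the control array, 1.90-fold lower and under the rule. The median of the 7 floor-limited log2 ratios was -0.39, against 0.03 over all 15150 genes at the floor. XXT1, which adds xylose to xyloglucan and is known from root hairs, had a log2 ratio of -0.59, and XTH8, a xyloglucan endotransglucosylase/hydrolase gene, had 0.49. Neither passed 2-fold.

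Marker genes were checked against the leaf label. RBCS, the small subunit of Rubisco, had a log2 signal of 15.62 on the LRK1 transgenic array and 15.15 on the control array, and the antenna gene CAB2R had 16.24 and 15.70 in the same order. PORA, a protochlorophyllide oxidoreductase gene, was called 3.07-fold higher and the photosystem I gene PSAH 2.04-fold higher. The log2 ratio of PSAH, 1.03, only just passed the rule. By the same rule, 7.17% of all genes at the floor were called higher and 11.4% lower. The 5 leaf markers with a probe set had a summed linear signal of 174097 on the LRK1 transgenic array and 112322 on the control array. Of 9 marker genes of dividing shoot tissue, 7 had a probe set, with a summed linear signal of 237 on the LRK1 transgenic array and 341 on the control array. The direction of that sum came from PCNA, the replication clamp, which was called 2.97-fold lower. Without it the other 6 summed to 140 on the LRK1 transgenic array and 53.8 on the control array. All of these 6 were below the floor on the control array, so no direction is read from this sum. Of the 7, 5 were below the floor on both arrays, among them the meristem gene OSH1, with a log2 signal of 4.95 on the LRK1 transgenic array and listed at 0 on the control array. Of 5 floral MADS genes, 3 reached the floor on at least 1 array. The linear signals of all 5 summed to 1264 on the LRK1 transgenic array and 863 on the control array, most of it from MADS16. The root marker NAS1 was below the floor on both arrays. The part of tissue make-up in the expansin values was not tested.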

How the data were processed

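The authors deposited 1 log2 signal per probe set and array. Per the submitters' processing notes it was made with MAS5, whose version and scaling target these notes do not state. That the scale is log2 was judged from the range of values, 0 to 16.24. Of 57381 probe sets, 123 array controls were left out of the comparison. Of the other 57258, the platform annotation gives 1 gene to 22436, several to 95 and none to 34727. Genes were named through the table of assembly ASM3414082v1, in which all 17905 were found, and no coordinates are printed. The brightest probe set by mean log2 signal stood for a gene. No test was run, and ratios were computed in Python 3.11.15 with pandas 2.3.3, and loess with statsmodels 0.14.6 (span 0.3). The call rule was run on simulated data, with large changes planted only in bright probe sets and less noise than these arrays show. That is a check of the code only. No change was planted at signals near or below the floor, where the control signals of EXPB2, EXPB7 and EXPB11 lie.

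The members, lists and rule for names were chosen with earlier results of these data known. Named genes are the 9 members, any other expansin gene past 2-fold, the 5 brightest of the rest, and per list up to 2 calls per direction or the brightest gene. Others were named after their values were seen: EXPB4, EXPB9, EXPB10, EXPB18, XTH8 and the markers shown. Planned lists of pectin enzymes and proton pumps had no members by symbol, and protein and promoter sequences were not analysed here. Alternatives were 4 other scalings, 2 other floors, log2(signal + 16), 1.5-fold and 4-fold rules and 2 other choices of probe set.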

Additional observations from a re-analysis of the deposited data

How the results depend on the processing

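No paired analysis was possible because each genotype has 1 array. Of 55 ratios of the 9 genes that kept a value under other scalings and floors, 48 moved by less than 0.48. That is the SD of a single probe set's log2 ratio implied by the spread between probe sets. Many of the 48 could not move so far. The centrings shift a ratio by at most 0.08 and 0.34, and the lower floor leaves genes measured on both arrays unchanged. Ratios with both signals below the floor, such as those of EXPB2, EXPB7 and EXPB11 under the higher floor, are not among the 55. Of the called ratios, 0 changed sign. Loess, quantile normalization, both centrings and the 4-fold rule left the set at 3 higher and 2 lower. Lowering the floor to the 25th percentile gave 5 of the 9 genes and 9 of all expansin genes higher, and 4 expansin genes lower. Raising it to the 75th percentile gave 0 higher in both sets. Adding 16 to the signals in place of a floor gave 8 expansin genes higher and 4 lower, and the 1.5-fold rule gave 5 higher. Endoglucanase genes, 0 higher and 1 lower as reported, were 3 and 3 under the lower floor, 3 and 2 with 16 added, 0 and 3 under the 1.5-fold rule and 0 and 0 under the 4-fold rule, and quantile normalization and both centrings gave 2 lower. The 1.5-fold rule called XXT1 lower, 1 of 2 xyloglucan genes. Of the 15150 genes at the floor, 1086 were called higher and 1732 lower as reported. These numbers were 2967 and 3261 under the 1.5-fold rule and 104 and 384 under the 4-fold rule. Centring on the spikes gave 463 higher and 2794 lower of 14824 genes, and the higher floor 554 and 1014 of 10606. The lower floor gave 2014 higher and 2536 lower of 17163 genes, and 16 added gave 1540 and 2087 of 17905. Both centrings take a constant off every ratio and can only add lower calls or remove higher ones. By definition the 1.5-fold rule and the lower floor can only add calls, and the 4-fold rule and the higher floor can only remove them. The cause of the shifts under quantile normalization and with 16 added was not tested. Signals near the floor limit what can be said of EXPA8 and EXPB8.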

Other observations

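Expansin genes near or below the floor had widely different signals on the 2 arrays that the rule leaves uncalled, since a direction is not read from signals below the floor. EXPB18 had a log2 signal of 5.31 on the LRK1 transgenic array and 0.20 on the control array. EXPB10, a beta-expansin of the pollen allergen group, had 4.94 on the LRK1 transgenic array and 0.79 on the control array, and EXPB9 of the same group had 3.32 and 5.73 in that order. For EXPA7, the annotation gives 3 probe sets, with log2 ratios of 0.09, -2.07 and 2.53, and 5 of their 6 signals were below the floor.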
